A study of Drosophila melanogaster with 24 samples.

Results

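The data describe how far the change in expression between lol and w1118 flies depended on the tissue in adult females of Drosophila melanogaster. The quantity was the difference between the lol minus w1118 change in heads and the same change in whole bodies, called here the tissue difference. It was estimated on the 12 female arrays of a set of 24, for all 13873 transcripts with a value on every array. A positive tissue difference means that lol minus w1118 was higher in heads than in bodies, and a negative one that it was lower in heads. The 12 arrays fall into 4 groups of 3, namely w1118 female heads, lol female heads, w1118 female whole bodies and lol female whole bodies. The other 12 arrays hold the same 4 groups of males and were used as a second set of samples.

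The strain lol carries a mutation of Lobe-less, a long noncoding RNA that the study ties to the mushroom body, and w1118 is the control strain. Flies of both strains grew at 23 °C and were frozen on day 2 of adult life, and frozen heads were separated from carcasses with a sieve. Each extraction of total RNA took 100 bodies or 100 heads, and the 3 samples of a group came from separate cultures. RNA was labelled with Cy3 and hybridised to a one-colour NimbleGen array that carried 8 probes for each of 16637 transcripts. The sources used here do not give the lol allele or the genetic background of either strain. Whole bodies include the head, so the tissues compared are not separate. In such bulk samples, fewer cells of a type and less RNA per cell cannot be told apart.

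The mushroom bodies are paired centres of the insect brain that serve olfactory learning and memory, and their Kenyon cells send axons into lobes. Long noncoding RNAs are transcripts with no known protein product, and some act on the transcription of other genes. A fly head holds brain, eyes, antennae, fat body and muscle, while a female body is dominated by ovary, gut, fat body and flight muscle.

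Values are log2 expression on a scale that ran from 6.61 to 15.92. Replicate arrays of a female group correlated at 0.974 to 0.989 across transcripts, and the median SD over the 3 arrays of a group was 0.16 to 0.22. The transcripts of lol and of w are not analysed here, so the genotype labels were not checked through these genes. Tissue labels could not be checked through defining markers either. None of 12 lists, some of gene groups and some of cell type markers, had 5 members that could be matched to a transcript. Each list of cell type markers had 0. A few arrays stood apart. For the 533 transcripts that were at least 2 log2 higher in female bodies than in female heads over both strains, the median level was 9.52 on lol female head replicate 1 and 8.56 to 8.85 on the other 5 female head arrays. Among males, w1118 head replicates 1 and 2 and lol head replicate 1 had medians of 9.58, 9.67 and 9.48 for the same transcripts. Some of the results are also given without these arrays.

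The change between strains differed between female heads and bodies for 38 of 13873 transcripts (0.274%) at an adjusted p under 0.05 in limma. It was higher in heads for 19 of them and lower in heads for the other 19 (0.137% each). All 38 tissue differences were at least 1 log2 in size. They ran from 1.10 to 5.18 in size with a median of 1.99, against a median of 0.17 over all transcripts. Without adjustment, 813 transcripts had a p under 0.05. Without lol female head replicate 1 the count was 34, with 28 of the 38 among them, 12 higher and 22 lower in heads. The count rested in part on other single arrays. It was 94 without w1118 female body replicate 2, 72 higher and 22 lower in heads, with 37 of the 38 among them. It was 25 without w1118 female body replicate 3 or without lol female body replicate 2. The equal numbers in both directions thus also rested on single arrays. The values next to the threshold on the inner side were those of FBtr0082337 (tissue difference -1.28, adjusted p 0.0446) and FBtr0070946 (1.72, 0.0448), and on the outer side those of FBtr0075749 (1.74, 0.0512) and FBtr0084941 (-2.36, 0.0535).

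Most changes between the strains were not shown to depend on the tissue. In heads 502 transcripts (3.62%) passed the test of lol against w1118, 280 of them higher in lol (2.02%) and 222 lower (1.6%). In bodies 616 (4.44%) passed, 339 higher (2.44%) and 277 lower (2%). Of these, 221 passed in both tissues with the same sign, and 4 of the 221 (1.81%) passed the test of the tissue difference. The median signed change of the 221 was 0.68 in heads and 0.69 in bodies. Rises and falls both enter these medians, so they do not give a typical size. A further 278 transcripts passed in heads alone, 11 of them (3.96%) with a tissue difference that passed, and 237 of the 278 had the same sign in bodies. In bodies alone 392 passed, 20 of them (5.1%) with a tissue difference that passed, and 330 of the 392 had the same sign in heads. A change that passed in a single tissue thus seldom came with a tested difference between the tissues. None of the 12979 transcripts that passed in neither tissue passed the test of the tissue difference.

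The 38 transcripts fall into classes by what each tissue showed. In 3 the changes passed in both tissues and were opposite in sign. In 4 they passed in both tissues with the same sign and unequal size. The other 31 passed in a single tissue, 20 in bodies and 11 in heads. Of the 20, 13 lay near the bottom of the scale in heads, which here means that both strains had a mean under 9, and in the other 7 at least 1 strain had a mean of 9 or more. The latter are called mid-scale below. Of the 11, none lay near the bottom in bodies, 10 lay mid-scale and 1 had means over 15 in bodies, near the top of the scale. Over all transcripts, 2543 (18.3%) lay near the bottom in heads and 2230 (16.1%) in bodies.

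**Figure D1:**
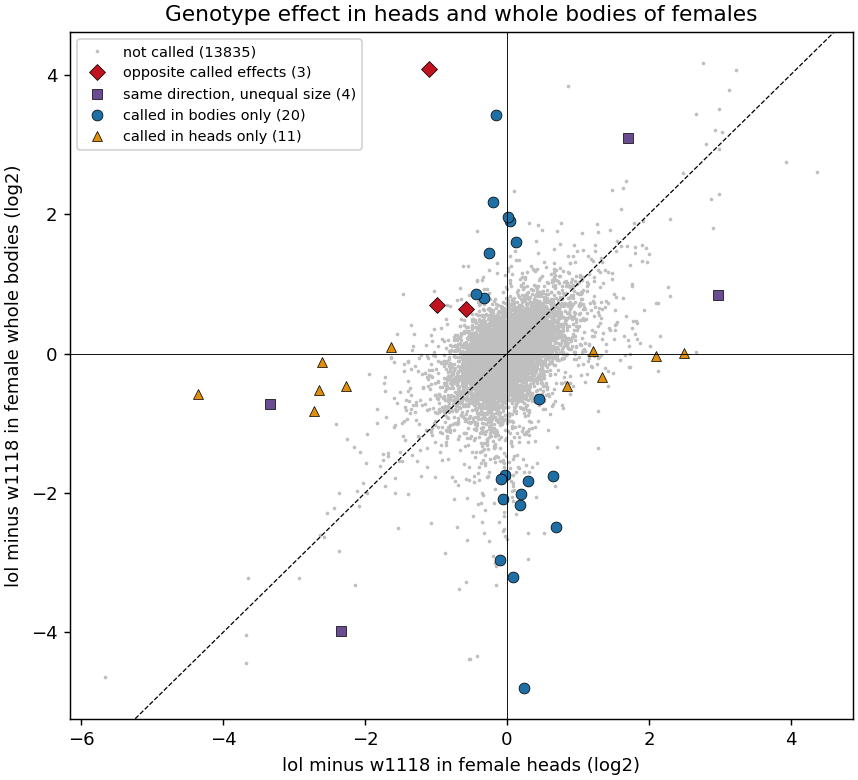
Change from w1118 to lol in female whole bodies (vertical axis, log2) against the change in female heads (horizontal axis, log2), 1 point per transcript, with the 38 transcripts whose tissue difference passed the test coloured by class and a dashed line at equality. The 3 opposite transcripts lie at upper left, the 20 body-only ones along the vertical axis and the 11 head-only ones along the horizontal axis.

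Opposite changes were found in 3 transcripts, and all 3 were lower in lol heads and higher in lol bodies. FBtr0075181 had the largest tissue difference in size of all 38. Its levels in w1118 heads were 9.46, 9.62 and 9.34 and in lol heads 8.73, 8.25 and 8.15. In w1118 bodies they were 9.71, 9.89 and 10.18, and in lol bodies 14.07, 14.28 and 13.66. The strains did not overlap in either tissue, and the w1118 flies had about the same level in heads and bodies while the lol flies did not. The change was -1.10 in heads (limma adjusted p 0.0125), a level 2.14-fold lower in lol, and 4.08 in bodies (adjusted p 2.85e-06), a level 16.9-fold higher. The tissue difference was -5.18 ± 0.28 (SE, n = 3 arrays a group, adjusted p 2.8e-05 in limma across all transcripts).

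FBtr0072011 was well above the bottom of the scale in every group. Its levels were 12.32, 12.24 and 11.93 in w1118 heads against 11.49, 11.13 and 10.92 in lol heads. In bodies they were 12.36, 12.24 and 12.65 in w1118 and 13, 13.09 and 13.24 in lol. Neither tissue had overlapping strains, and the gap was smaller in bodies than in heads. The changes were -0.98 in heads (limma adjusted p 0.00913) and 0.70 in bodies (0.0457), with a tissue difference of -1.68 ± 0.24 (0.0156). The third opposite transcript, FBtr0085510, was named after its values were seen. Its levels in heads were 8.55, 8.66 and 8.35 in w1118 and 7.86, 7.94 and 8.03 in lol, so both strains were near the bottom there. In bodies they were 10.88, 10.98 and 10.67 in w1118 and 11.42, 11.48 and 11.53 in lol. The strains again did not overlap in either tissue. Its changes were -0.58 in heads (limma adjusted p 0.0213) and 0.64 in bodies (0.0122), and its tissue difference was -1.21 ± 0.17 (0.0111).

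The 3 opposite calls differed in how much they depended on single arrays. Signs were opposite for all 3 in every setting tried. FBtr0075181 kept its tested tissue difference in all 19 settings, and lost the call of a fall in heads in 3 of them, with a limma adjusted p of 0.06 without w1118 female head replicate 2, 0.0514 without lol female head replicate 2 and 0.234 with all 24 arrays in the fit. FBtr0072011 was opposite with all calls in 9 of 19 settings. Its rise in bodies lost its call with all 24 arrays in the fit (limma adjusted p 0.0957) and without 1 of 8 of the 12 arrays (0.0534 to 0.158), and kept it without w1118 female body replicate 3, w1118 female head replicate 3, lol female head replicate 1 or lol female head replicate 3. Its tissue difference lost its call without w1118 female head replicate 2 (0.0565), lol female head replicate 2 (0.0509), w1118 female body replicate 1 (0.0576), lol female body replicate 2 (0.0576) or lol female body replicate 3 (0.0602). FBtr0085510 was opposite with all calls in 10 of 18 settings. Its tissue difference lost its call with all 24 arrays in the fit (limma adjusted p 0.536) and with an intensity trend (0.142). Its fall in heads lost its call without lol female head replicate 1, the array that stood apart (limma adjusted p 0.0818), and without w1118 female head replicate 1 (0.0702), w1118 female head replicate 2 (0.098) or lol female head replicate 2 (0.0689). Its rise in bodies lost its call without lol female body replicate 2 (0.0518) or 3 (0.0563). FBtr0075181 and FBtr0072011 remained opposite, with all calls, without lol female head replicate 1. No transcript was in this class without w1118 female head replicate 2 or without lol female head replicate 2, and 1 was without lol female body replicate 2 or 3, while 6 were without lol female head replicate 3.

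**Figure D2:**
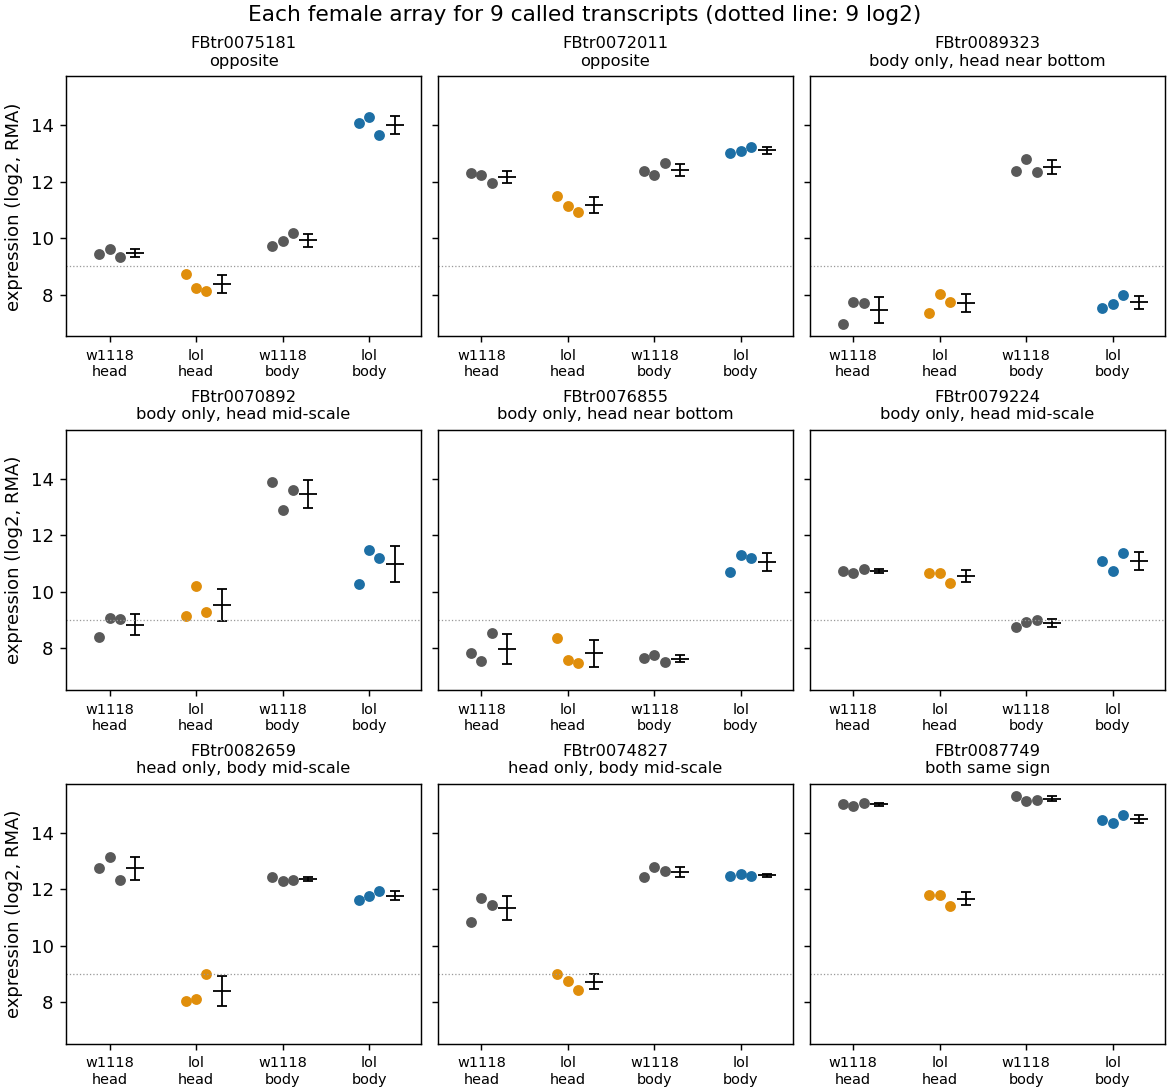
Level (log2, vertical axis) of single transcripts on each of the 12 female arrays, by group: w1118 and lol heads, then w1118 and lol bodies, with the mean ± SD of 3 arrays beside the points and a dotted line at 9. FBtr0075181 fell in lol heads and rose in lol bodies, while the transcripts changed in a single tissue have overlapping or close strains in the other.

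Of the 20 transcripts changed in bodies alone, 12 fell and 8 rose. Their strains did not overlap in bodies for 20 of 20, against 25.5% of all transcripts, which follows from their calls. In heads the strains did not overlap for 8 of the 20, against 17.9% of all transcripts. The 12 falls had a median of -2.05 in bodies and ran from -4.79 to -0.65. For each fall, the room left in heads was taken as the w1118 level in heads minus 7.30, the first percentile of all values on the 12 arrays. In 11 of the 12 the room was smaller than the fall seen in bodies, so a fall of that size in heads would have ended below that level. All 8 falls whose heads lay near the bottom were among the 11, as were 3 of the other 4. The w1118 level of the 12 was 7.14 to 10.58 in heads, with a median of 7.95, and 9.63 to 13.60 in bodies.

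FBtr0089323 had the largest fall in bodies. Its levels were 12.39, 12.81 and 12.34 in w1118 bodies and 7.54, 7.65 and 7.99 in lol bodies. In heads they were 6.94, 7.75 and 7.70 in w1118 and 7.36, 8.01 and 7.76 in lol. All 6 head arrays and all 3 lol body arrays thus lay at the bottom of the scale, and only the w1118 bodies stood above it. The change in bodies was -4.79 (limma adjusted p 2.85e-06), a level 27.6-fold lower. In heads it was 0.24 (95% interval -0.30 to 0.79, adjusted p 0.785), and the tissue difference was 5.03 ± 0.35 (0.000127).

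FBtr0085861 behaved likewise. Its levels were 13.75, 13.66 and 13.38 in w1118 bodies and 10.21, 10.52 and 10.46 in lol bodies. In heads they were 7.70, 8.29 and 8.30 in w1118 and 8.23, 8.36 and 7.98 in lol. The strains were far apart in bodies and overlapped in heads. It fell by 3.20 on the log2 scale in bodies (limma adjusted p 4.88e-06), against a change of 0.09 in heads (0.921), with a tissue difference of 3.29 ± 0.26 (0.00029).

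In a pair of other falls the w1118 mean in heads was under 9 (8.52 and 8.84) and the lol mean over 9 (9.18 and 9.54), and the room was again smaller than the fall. FBtr0080715 had 11.66, 11.87 and 11.56 in w1118 bodies against 9.77, 10.24 and 9.83 in lol bodies. In heads it had 8.30, 8.54 and 8.73 in w1118 and 9.13, 8.91 and 9.49 in lol. The strains did not overlap in either tissue, with lol lower in bodies and higher in heads, but the head change did not pass. The changes were -1.75 in bodies (limma adjusted p 0.000492) and 0.66 in heads (0.0961), with a tissue difference of 2.41 ± 0.26 (0.00254). FBtr0070892 had 13.88, 12.91 and 13.62 in w1118 bodies against 10.28, 11.47 and 11.21 in lol bodies, and in heads 8.41, 9.08 and 9.04 against 9.15, 10.19 and 9.27. Here too lol was lower on every body array and higher on every head array. The changes were -2.48 in bodies (limma adjusted p 0.00489) and 0.70 in heads (0.473), with a tissue difference of 3.18 ± 0.54 (0.0423). That call was lost without any 1 of 11 of the 12 arrays (limma adjusted p 0.055 to 0.136), the exception being w1118 female body replicate 2.

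A fall in bodies with room for the same fall in heads was found in 1 transcript, FBtr0070946, named after its values were seen. Its levels were 12.29, 11.67 and 12.52 in w1118 bodies and 10.18, 10.52 and 10.37 in lol bodies. In heads they were 10.42, 10.56 and 10.74 in w1118 and 10.40, 10.74 and 10.33 in lol. The strains were apart in bodies and overlapped in heads, at a level close to that of lol bodies. The changes were -1.81 in bodies (limma adjusted p 0.000772) and -0.09 in heads (0.933), with a tissue difference of 1.72 ± 0.29 (0.0448). This call too was lost without any 1 of 11 of the 12 arrays (limma adjusted p 0.0577 to 0.133), the exception being w1118 female body replicate 2.

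**Figure D3:**
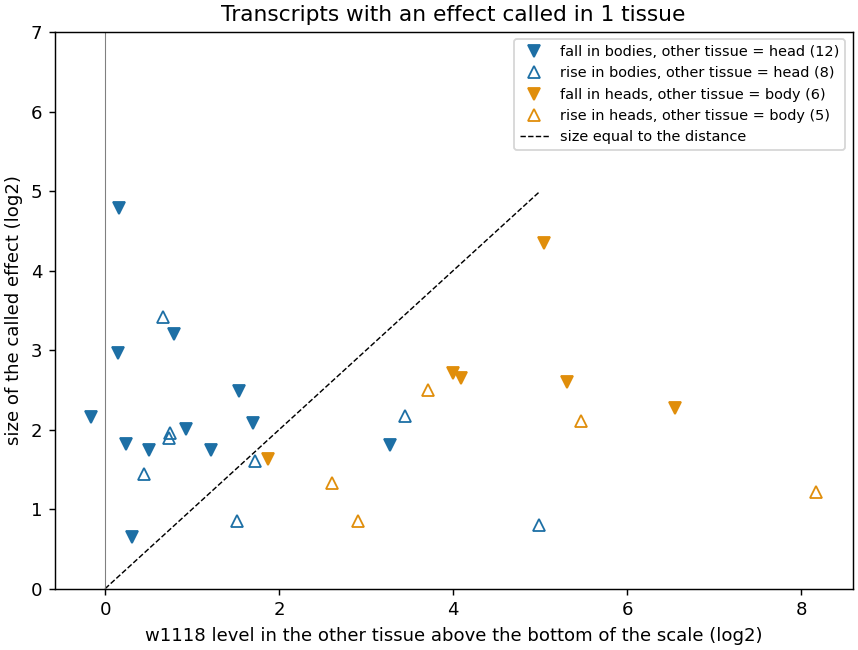
Size of the change in the tissue where it passed the test (vertical axis, log2) against the w1118 level in the other tissue minus 7.30 (horizontal axis, log2), for falls (filled) and rises (open) in bodies alone (blue) or heads alone (orange). On the dashed line both are equal: 11 of the 12 body-only falls lie above it and all 6 head-only falls below it.

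Room was computed for falls, and no such measure was taken for rises. The 8 transcripts that rose in bodies alone did so by 0.80 to 3.42, with a median of 1.75, and their changes in heads were -0.43 to 0.13. In 5 of the 8 both strains were near the bottom in heads. FBtr0076855 was near the bottom everywhere except in lol bodies, with 7.65, 7.76 and 7.51 in w1118 bodies and 10.70, 11.29 and 11.20 in lol bodies. In heads it had 7.82, 7.54 and 8.55 in w1118 and 8.38, 7.60 and 7.48 in lol, so the strains overlapped. The changes were 3.42 in bodies (limma adjusted p 9e-05), a level 10.7-fold higher, and -0.15 in heads (0.917), with a tissue difference of -3.57 ± 0.41 (0.00376).

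FBtr0086812 had 9.69, 9.91 and 9.22 in w1118 bodies and 11.70, 11.64 and 11.38 in lol bodies, with 8.25, 7.89 and 8.01 in w1118 heads and 8.43, 7.72 and 8.05 in lol heads. The strains were apart in bodies and overlapped in heads. It rose by 1.96 in bodies (limma adjusted p 0.000506), with a change of 0.01 in heads (0.991) and a tissue difference of -1.95 ± 0.30 (0.0261). The call of that difference was lost without 1 of 9 of the 12 arrays (limma adjusted p 0.0524 to 0.0931) and kept without w1118 female body replicate 2, lol female body replicate 3 or lol female head replicate 1.

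The other 3 of the 8 rises were mid-scale in heads by the limit of 9, by unequal margins. FBtr0079224 had 10.75, 10.68 and 10.82 in w1118 heads and 10.68, 10.68 and 10.31 in lol heads. In bodies it had 8.75, 8.95 and 9.02 in w1118 and 11.11, 10.75 and 11.38 in lol. The w1118 flies thus had more in heads than in bodies, and lol bodies reached the level of heads. The changes were 2.17 in bodies (limma adjusted p 4.02e-05), a level 4.50-fold higher, and -0.20 in heads (0.725), with a tissue difference of -2.37 ± 0.24 (0.00155). FBtr0084696 had 7.95, 8.09 and 7.77 in w1118 bodies and 9.59, 9.56 and 9.46 in lol bodies, with 9.03, 8.99 and 9.08 in w1118 heads and 9.01, 9.21 and 9.27 in lol heads. Its heads thus lay just at the limit of 9, and near the bottom if the limit is set at 10. It rose by 1.60 in bodies (limma adjusted p 1.97e-05), with a change of 0.13 in heads (0.731) and a tissue difference of -1.47 ± 0.16 (0.00237). With an intensity trend in the prior spread that call was lost (limma adjusted p 0.0587).

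The counts of body-only transcripts moved with single arrays. The 13 whose heads were near the bottom became 44 without w1118 female body replicate 2. They became 7 without w1118 female body replicate 1 or 3, and 8 without lol female body replicate 2, w1118 female head replicate 3 or lol female head replicate 3.

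None of the 11 transcripts changed in heads alone lay near the bottom of the scale in bodies, against 16.1% of all transcripts. Whatever their tissue difference, 24 of the 278 that passed in heads alone lay near the bottom in bodies. Of the 392 that passed in bodies alone, 83 lay near the bottom in heads. The 0 of 11 was not tested against these shares. In heads 6 of the 11 fell and 5 rose. Their strains did not overlap in heads for 11 of 11, against 17.9% of all transcripts, which follows from their calls, and in bodies for 5 of the 11, against 25.5% of all transcripts. For all 6 falls, -4.35 to -1.63 with a median of -2.63, the room in bodies (1.87 to 6.55) was larger than the fall. Their changes in bodies were -0.83 to 0.09. The 5 rises were 0.85 to 2.50 with a median of 1.33, beside changes of -0.46 to 0.03 in bodies.

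FBtr0082659 had the largest change in heads. Its levels were 12.76, 13.13 and 12.31 in w1118 heads and 8.06, 8.10 and 9.0 in lol heads. In bodies they were 12.43, 12.28 and 12.33 in w1118 and 11.60, 11.76 and 11.94 in lol. Levels in w1118 heads and bodies were close, and lol was lower on every array of both tissues, by far more in heads. The change was -4.35 in heads (limma adjusted p 1.04e-05), a level 20.4-fold lower. In bodies it was -0.58 (95% interval -1.15 to -0.01, adjusted p 0.269), and the tissue difference was -3.77 ± 0.37 (0.00134).

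FBtr0074827 had 10.85, 11.68 and 11.45 in w1118 heads and 8.99, 8.73 and 8.44 in lol heads. In bodies it had 12.43, 12.77 and 12.62 in w1118 and 12.48, 12.54 and 12.45 in lol. The strains were apart in heads and overlapped in bodies. It fell by 2.61 on the log2 scale in heads (limma adjusted p 5.82e-05), against a change of -0.12 in bodies (0.853), with a tissue difference of -2.48 ± 0.29 (0.00422).

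Among the 5 rises in heads alone, FBtr0079357 had the largest tissue difference. It had 8.23, 7.88 and 8.29 in w1118 heads and 10.14, 10.82 and 10.95 in lol heads, with 11.15, 10.46 and 11.44 in w1118 bodies and 10.95, 10.79 and 11.33 in lol bodies. All 3 w1118 heads lay below every other array, and the lol heads came close to the body level. The changes were 2.50 in heads (limma adjusted p 0.000642) and 0.01 in bodies (95% interval -0.60 to 0.62, adjusted p 0.995), with a tissue difference of 2.49 ± 0.39 (0.0296). FBtr0086325 had 8.84, 9.23 and 8.90 in w1118 heads and 10.57, 11.05 and 11.66 in lol heads, with 12.62, 13.12 and 12.59 in w1118 bodies and 12.76, 12.77 and 12.72 in lol bodies. The changes were 2.10 in heads (limma adjusted p 0.000929) and -0.03 in bodies (0.98), with a tissue difference of 2.13 ± 0.35 (0.0339).

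Each of these calls was lost without 1 of 9 of the 12 arrays. For FBtr0079357 the limma adjusted p was then 0.0556 to 0.0961, it was 0.633 with all 24 arrays in the fit, and the call was kept without w1118 female body replicate 2, lol female body replicate 3 or lol female head replicate 1. For FBtr0086325 the limma adjusted p was then 0.0565 to 0.108, it was 0.0946 with all 24 arrays and 0.0562 after a further quantile normalization, and the call was kept without w1118 female body replicate 2, lol female head replicate 1 or lol female head replicate 3. The transcript near the top of the scale in bodies, FBtr0079808, was named after its values were seen. It had 14.09, 13.85 and 14.08 in w1118 heads and 15.35, 15.20 and 15.11 in lol heads, against 15.41, 15.52 and 15.50 in w1118 bodies and 15.62, 15.52 and 15.41 in lol bodies. Its change was 1.21 in heads (limma adjusted p 0.000167) and 0.03 in bodies (0.94), with a tissue difference of 1.18 ± 0.16 (0.0101). Whether the scale compresses differences at its body level was not tested.

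A change that did not pass is not a change shown to be missing. FBtr0076852 and FBtr0081575, counted as changed in heads alone, were named after their values were seen because their changes in bodies came close to passing. FBtr0076852 had 9.12, 9.01 and 8.89 in w1118 heads and 9.76, 9.90 and 9.91 in lol heads, against 10.12, 10.09 and 10.41 in w1118 bodies and 9.78, 9.81 and 9.66 in lol bodies. The strains did not overlap in either tissue, with lol higher in heads and lower in bodies. The changes were 0.85 in heads (limma adjusted p 0.0028) and -0.46 in bodies (0.0532), with a tissue difference of 1.31 ± 0.17 (0.00788) that lost its call with an intensity trend (0.105). In males its changes were 0.96 in heads and -0.58 in bodies, with a tissue difference of 1.54 that passed (limma adjusted p 0.0284).

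FBtr0081575 had 12.14, 12.27 and 12.28 in w1118 heads and 9.89, 9.26 and 9.38 in lol heads, against 11.09, 11.51 and 11.30 in w1118 bodies and 10.02, 10.64 and 10.75 in lol bodies. Here lol was lower on every array of both tissues. The change was -2.72 in heads and -0.83 in bodies (limma adjusted p 0.0566), with a tissue difference of -1.89 ± 0.30 (0.0325). That call was lost without 1 of 9 of the 12 arrays (limma adjusted p 0.0582 to 0.102) and with all 24 arrays in the fit (0.0866), and kept without w1118 female body replicate 2, lol female body replicate 1 or lol female head replicate 1.

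The transcripts that passed in a single tissue and were mid-scale in the other numbered 17, 10 changed in heads and 7 in bodies. Their number was 39 without w1118 female body replicate 2, 10 without w1118 female body replicate 3, and 11 without w1118 female head replicate 2 or 3.

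In 4 transcripts lol moved the same way in both tissues, by unequal amounts. FBtr0087749 had 15.02, 14.94 and 15.03 in w1118 heads and 11.79, 11.79 and 11.38 in lol heads. In bodies it had 15.30, 15.13 and 15.16 in w1118 and 14.46, 14.34 and 14.62 in lol. Levels of w1118 were near the top in both tissues, and lol was lower on every array. The falls were -3.34 in heads (limma adjusted p 6.39e-07), 10.2-fold, and -0.72 in bodies (0.0112), 1.65-fold, with a tissue difference of -2.62 ± 0.18 (0.000127). FBtr0080691 rose by 2.97 in heads (limma adjusted p 6.39e-07) and by 0.84 in bodies (0.00345), with a tissue difference of 2.13 ± 0.17 (0.000296). Its levels were 11.05, 10.66 and 10.95 in w1118 heads, 13.91, 13.92 and 13.74 in lol heads, 14.37, 14.56 and 14.56 in w1118 bodies, and 15.40, 15.33 and 15.30 in lol bodies. Its body levels in lol lay near the top of the scale.

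The other pair moved more in bodies. FBtr0074824 had 10.41, 10.70 and 10.75 in w1118 heads, 8.23, 8.53 and 8.09 in lol heads, 12.81, 12.48 and 12.86 in w1118 bodies, and 8.79, 8.77 and 8.65 in lol bodies. The lol levels lay under 9 in both tissues, and the w1118 level was lower in heads than in bodies. Whether the bottom of the scale limited either fall was not tested. The falls were -2.34 in heads (limma adjusted p 1.5e-05) and -3.98 in bodies (6.29e-07), with a tissue difference of 1.64 ± 0.21 (0.00883). FBtr0079363 had 10.26, 10.87 and 10.91 in w1118 heads, 12.41, 12.35 and 12.43 in lol heads, 10.01, 10.15 and 10.18 in w1118 bodies, and 13.18, 13.13 and 13.31 in lol bodies. It rose by 1.71 in heads (limma adjusted p 0.000168) and by 3.09 in bodies (2.85e-06), with a tissue difference of -1.38 ± 0.22 (0.0339). This call was lost without 1 of 10 of the 12 arrays (limma adjusted p 0.0577 to 0.116), the exceptions being w1118 female body replicate 2 and w1118 female head replicate 1, and it was lost with all 24 arrays in the fit (0.145).

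The share of transcripts with a tested tissue difference varied with their level. Among 1856 transcripts whose highest female group mean was under 9, 0 passed. In the ranges 9 to 11, 11 to 13, 13 to 15 and over 15, 8 of 2163 (0.37%), 21 of 3747 (0.56%), 6 of 4999 (0.12%) and 3 of 1108 (0.271%) passed. The median SD within groups fell over the same ranges, from 0.35 under 9 and 0.37 between 9 and 11 to 0.23, 0.17 and 0.11. Near the bottom of the scale a difference therefore had to be larger to pass.

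A gene name could be given to 16 measured transcripts, and the tissue difference passed for 0 of the 16. For LanA the limma adjusted p was 0.872, and for the other 15 it was 0.998. SuUR, which encodes a chromatin protein that suppresses DNA replication in polytene chromosomes, was lower in lol in both tissues. Its levels were 12.98, 13.56 and 13.24 in w1118 heads and 12.47, 12.74 and 12.30 in lol heads, and 13.52, 13.35 and 13.59 in w1118 bodies against 12.77, 12.76 and 12.73 in lol bodies. The strains did not overlap in either tissue. SuUR fell by 0.76 on the log2 scale in heads (limma adjusted p 0.0247) and by 0.73 in bodies (0.0278). The tissue difference was -0.03 with a 95% interval of -0.53 to 0.47.

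LanA, the laminin alpha chain of basement membranes, had 14.38, 14.60 and 14.06 in w1118 heads and 13.36, 13.48 and 13.60 in lol heads. In bodies it had 14.84, 14.90 and 14.99 in w1118 and 14.45, 14.44 and 14.47 in lol. Every lol array was below every w1118 array of its tissue. LanA fell by 0.87 on the log2 scale in heads (limma adjusted p 0.00546), and the change in bodies was -0.45 (0.0949). The tissue difference was -0.41 (95% interval -0.84 to 0.01, unadjusted limma p 0.0552), so the call in heads alone does not show that the tissues differed. In sle (slender lobes), a nuclear protein gene that takes its name from thin mushroom body lobes, the changes were -0.45 in heads (limma adjusted p 0.245) and -0.68 in bodies (0.0533), and the tissue difference had a 95% interval of -0.31 to 0.77.

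The remaining named genes passed in neither tissue. Wdr24 and mio encode subunits of the GATOR2 complex, which acts in amino acid sensing. The changes of Wdr24 were 0.54 in heads (limma adjusted p 0.12) and 0.29 in bodies (0.399), and those of mio were 0.11 and 0.18. fend, named for an axon guidance defect, had changes of 0.07 and -0.22, with a tissue difference of 0.29 (95% interval -0.25 to 0.84). alpha-Spec (spectrin of the membrane skeleton), kis (a chromatin remodeller), HDAC3 (a histone deacetylase), His4r (a histone H4) and Uba1 (the ubiquitin-activating enzyme) had tissue differences of -0.04, 0.14, -0.01, 0.14 and 0.06. For rdx (an adaptor of a ubiquitin ligase), NaPi-III (a phosphate transporter), Fatp1 (a fatty acid transporter) and CG16974 they were 0.22, 0.25, -0.20 and 0.03. The levels of rdx, Fatp1, CG16974 and Uba1 were at 14.75 or above in all 4 groups. Whether the scale compresses differences there was not tested. CG31178 lay near the bottom of the scale in all 4 female groups (means of 8.17 to 8.61) and had the widest 95% interval, -0.74 to 1.13.

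**Figure D4:**
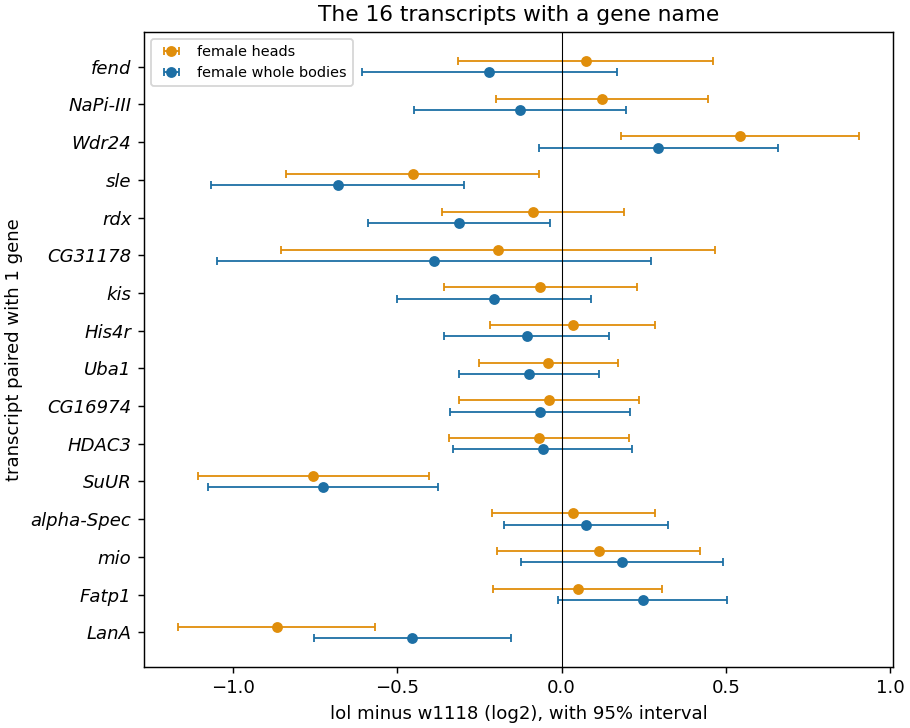
Change from w1118 to lol (log2, horizontal axis) of the 16 named genes in female heads (orange) and female whole bodies (blue), with 95% intervals from limma on 12 arrays, ordered by the tissue difference. The intervals of both tissues overlap for all 16 genes, and SuUR lies to the left of 0 by about the same amount in both.

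Transcripts were also described in sets by where they were measured, averaged over both strains. The average does not use the difference between strains, but a large change of 1 strain in 1 tissue also moves it. Of the 38 transcripts, 15 were among the 533 that were at least 2 log2 higher in female bodies than heads, 8 with a higher and 7 with a lower change in heads. That is 2.81% of the set, against 0.274% of all transcripts. The larger share is in part built in, since such a change can itself carry a transcript over 2 log2. In FBtr0089323, 1 of the 15, the mean was 7.47 in w1118 heads and 12.52 in w1118 bodies, but 7.71 and 7.73 in lol. The share thus does not show that body-enriched transcripts depended more on the tissue. None of the 38 was among the 211 that were at least 2 log2 higher in female heads. In bodies the changes of the 211 had a median of 0.21, and 19 rose (9%, against 2.44% of all transcripts) and 1 fell (0.474%, against 2%). In heads the median was 0.04, and 11 rose (5.21%, against 2.02%) and 1 fell (0.474%, against 1.6%). The median in heads turned to -0.01 without lol female head replicate 1 or 2. The median tissue difference of the 211 was -0.18, and was -0.26 after a further quantile normalization and -0.10 without lol female head replicate 3.

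For the 533 body-enriched transcripts, of which 247 (46.3%) had heads near the bottom, the median tissue difference was 0.24, and without lol female head replicate 1 it was -0.05. Their median change in heads was 0.15, and without that array it was -0.06. This is the array on which the same transcripts had the highest level of all female head arrays, so the direction of the set rested on 1 array. Its part in the 15 calls of the set was not tested.

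Among 113 transcripts at least 2 log2 higher in female than in male bodies, lol bodies were lower than w1118 bodies. The median level of the set was 12.19, 11.42 and 12.46 on the w1118 female body arrays and 10.79, 10.87 and 11.05 on the lol arrays, which do not overlap. The median change was -0.89 in bodies and -0.05 in heads, and the median tissue difference was 0.75, against 0.00 over all transcripts. A tissue difference passed for 3 of the 113 (2.65%), all higher in heads. In heads 46 of the 113 (40.7%) were near the bottom, and these had a median change of -1.31 in bodies and 0.03 in heads. The other 67 had a median of -0.66 in bodies and -0.10 in heads, with a median tissue difference of 0.56. In these at least 1 strain had a mean of 9 or more in heads. Of the 67, 21 fell (31.3%) and 0 rose in bodies, against 1.95% and 2.7% of the 11330 transcripts not near the bottom in heads. In heads 3 fell (4.48%) and 1 rose (1.49%), against 1.9% and 2.36% of the same 11330. The part of the bottom of the scale in the set's medians was not tested. Leaving out 1 female array at a time gave medians of the tissue difference of the 113 between 0.54 (without w1118 female body replicate 3) and 0.87 (without w1118 female body replicate 2). The median of the head change was then -0.11 to 0.02, the latter without w1118 female head replicate 1.

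The same contrast in males, on 12 arrays that the female values do not use, passed for 23 of 13873 transcripts (0.166%), 11 higher (0.0793%) and 12 lower (0.0865%) in heads. All 38 transcripts called in females had the same sign in males, against 48.7% of all transcripts. In 8 of the 38 the male tissue difference also passed, with the same sign in all 8. The sizes were smaller in males, 0.02 to 3.26 with a median of 1.04, against 1.99 in females, and the median over all transcripts in males was 0.23. Across the 38 transcripts the male and female values correlated at 0.88, and across all 13873 at 0.05. These correlations are a description, since transcripts share arrays and strains and the 38 were chosen for their size in females. Smaller sizes on other arrays follow in part from that choice, and do not show a weaker dependence on the tissue in males.

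**Figure D5:**
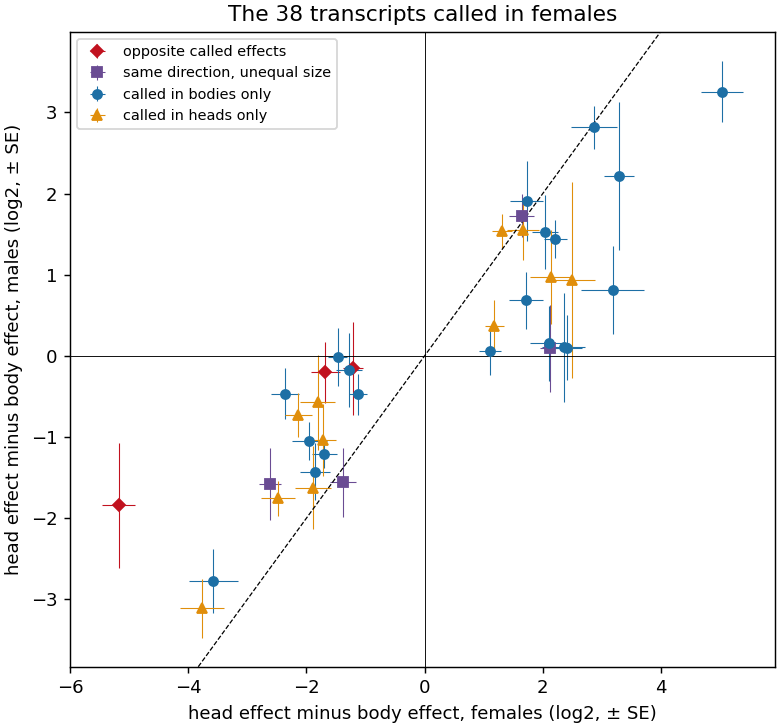
Tissue difference in males (vertical axis, log2) against that in females (horizontal axis, log2) for the 38 transcripts called in females, coloured by class, with bars of 1 SE and a dashed line at equality. All 38 lie at lower left or upper right, most of them nearer to 0 in males, and all were chosen on the female values.

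Among the transcripts described above, FBtr0089323 had a male tissue difference of 3.26 (limma adjusted p 0.0102), FBtr0082659 one of -3.11 (0.0102) and FBtr0074827 one of -1.76 (0.015). FBtr0074824 (1.73, 0.0397) and FBtr0076855 (-2.78, 0.0319) passed as well. For the opposite transcripts, also chosen on the female values, the male values were smaller. FBtr0075181 changed by -0.18 in heads of males and 1.66 in their bodies, a male tissue difference of -1.84 (limma adjusted p 0.769). FBtr0072011 had -0.52 and -0.32, the same sign in both tissues, with a difference of -0.20 (0.938), and FBtr0085510 had -0.01 and 0.14 (0.972 for the difference). FBtr0080691 rose less in female bodies than heads, while in males its changes were 2.00 in heads and 1.91 in bodies, a difference of 0.09 (0.985).

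The male head arrays that stood apart bear on these values. In FBtr0085861 the male w1118 heads had 10.16, 11.31 and 8.07, and the male tissue difference was 2.22 (limma adjusted p 0.762). In FBtr0079357 they had 10.56, 12.08 and 7.55, with a difference of 0.94 (0.909). In both transcripts replicates 1 and 2 were the high ones. FBtr0085861 is among the body-enriched transcripts, in which these arrays were high. FBtr0079357 is not, but is among 1492 transcripts at least 2 log2 higher in male than in female bodies. The median level of the 1492 was 9.86 and 10.63 on w1118 male head replicates 1 and 2, and 10.12 on lol male head replicate 1. On the remaining male head arrays it was 8.42, 8.43 and 8.49. Without the 3 male head arrays that stood apart, which leaves 1 array of w1118 male heads, assumed to vary like the other groups, 36 of the 38 had the same sign as in females (48.4% of all transcripts). The exceptions were FBtr0084913 and FBtr0072913, named after their values were seen. In that fit 53 transcripts passed in all, and 11 of the 38 did, each with the sign it had in females.

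The difference between the female and the male tissue difference was tested on all 24 arrays. It passed for 1 of 13873 transcripts (0.00721%), and for none of the 38, while 678 had an unadjusted p under 0.05. A tissue difference called in females and not in males was therefore not shown to differ between the sexes. The 1 transcript was FBtr0086596, named after its values were seen, whose change in females was 0.52 in heads and 0.81 in bodies, and in males 1.07 in heads and 4.11 in bodies. Its female minus male value was 2.75 ± 0.35 (limma adjusted p 0.00441). The largest of its 4 changes was that in male bodies.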

How the data were processed

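The values deposited by the authors are log2 expression levels of transcripts, made with RMA (robust multi-array average) per the submitters' processing notes. The sources used here name neither the RMA version nor the arrays that were normalized as a set. That the log is to base 2 was inferred from the range of the values. The table lists 15595 transcripts, and the 1722 that were empty on all arrays were left out, which left 13873. Arrays have no count depth, and 3 arrays a group limit the precision.

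A mean per group was fitted to the 12 female arrays with limma 3.58.1 (lmFit, contrasts.fit and eBayes) in R 4.3.3, with Benjamini-Hochberg adjustment over all 13873 transcripts and calls at 0.05. SE and intervals are limma's. Males were fitted alike on their 12 arrays, and the sexes were compared on 24. The scripts were tested on simulated data. Groups came from the labels.

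Transcripts carry FlyBase IDs. A reference gene table (Release 6) lists 49 such IDs, of which 43 were measured, 16 with a single gene. All 16 were reported, and by ID the 2 most positive and the 2 most negative called transcripts of the whole comparison and of each class. Members, classes and lists were chosen with earlier results of these data known. Marker lists could not be matched. The alternatives tried were all 24 arrays in the fit, an intensity trend with a robust prior, a further quantile normalization, centring on array medians, dropping the lowest 25% of transcripts, array weights, the replicate number as a block, other limits for the bottom of the scale, and leaving out each array. The fit without 3 male head arrays, and the opposite class under each setting, were added after seeing the data.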

Additional observations from a re-analysis of the deposited data

Results flagged for a closer look

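The results below are some of the 38 transcripts whose change between strains differed between female heads and bodies by the limma test of that difference. They are those described in detail above, and the rest of the 38 are not listed. The transcript that differed between the sexes is added at the end. Each value is the head change minus the body change in females, in log2. Positive values were those of FBtr0089323 (5.03), FBtr0085861 (3.29), FBtr0070892 (3.18), FBtr0079357 (2.49), FBtr0080715 (2.41), FBtr0086325 (2.13), FBtr0080691 (2.13), FBtr0070946 (1.72), FBtr0074824 (1.64), FBtr0076852 (1.31) and FBtr0079808 (1.18).

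On the negative side were FBtr0075181 (-5.18), FBtr0082659 (-3.77), FBtr0076855 (-3.57), FBtr0087749 (-2.62), FBtr0074827 (-2.48), FBtr0079224 (-2.37), FBtr0086812 (-1.95), FBtr0081575 (-1.89), FBtr0072011 (-1.68), FBtr0084696 (-1.47), FBtr0079363 (-1.38) and FBtr0085510 (-1.21). FBtr0086596 stood apart by the test of females against males (2.75, the female minus the male value).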

How the results depend on the processing

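No call turned to the opposite direction in the settings run. For the 23 called transcripts listed in the section before, the interaction of genotype and tissue kept its sign in all settings run. The count of 38 was 52 with all 24 arrays in the fit, 45 with an intensity trend, 36 after a further quantile normalization, 40 after centring, 26 without the lowest 25% of transcripts and 49 with array weights, and 25 to 94 with 1 array left out. Between 22 and 38 of the 38 were among them in the settings that kept all arrays. Heads gave 278 to 547 calls and bodies 307 to 792 with 1 array left out, and bodies gave 945 with array weights.

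Opposite effects numbered 1 with all 24 arrays and 6 with array weights, and 0 to 6 with 1 array left out. The 1 with all 24 arrays was higher in lol heads and lower in lol bodies, and was none of the opposite transcripts described above. With array weights 2 of the 6 had that direction and 4 the reverse. Without w1118 female body replicate 2 the class held 4, with 2 in each direction. The direction shared by the opposite transcripts in the main fit thus did not hold for the class in these settings. Body-only or head-only effects with the other tissue near the bottom numbered 2 without the lowest 25% of transcripts, since those transcripts were dropped, 12 and 19 with the bottom set at 8.5 and 10, and 7 to 44 with 1 array left out. Those with the other tissue mid-scale numbered 30 with all 24 arrays, 18 and 11 with the bottom at 8.5 and 10, and 10 to 39 with 1 array left out.

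The male count of 23 was 60 with all 24 arrays, 15 with a trend, 9 without the lowest 25%, 57 with array weights, 15 with the replicate block and 8 to 34 with 1 array left out. The count of females against males was 0 with a trend, 0 after quantile normalization, 0 without the lowest 25%, 30 with array weights and 1 to 25 with 1 array left out. The causes were not tested.

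With the replicate number as a block, 33 female tissue differences passed, 29 of them among the 38. The numbers were not shown to pair samples. Deviations of same-numbered samples correlated at 0.09 to 0.59 for number 1, -0.11 to 0.14 for number 2 and -0.11 to 0.51 for number 3, and 6 of 12 arrays correlated best with their own number. The calls of FBtr0070892 (adjusted p 0.0688 in limma), FBtr0081575 (0.0724) and FBtr0070946 (0.0875) were lost under the block, as was the rise of FBtr0072011 in bodies (0.0682).

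Limits of these data are the 3 arrays a group, heads that are part of the bodies, and few transcripts with a gene name. The scale may also flatten under about 9 and over 15, which was not tested.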
